A study of Mus musculus with 18 samples.

Results

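The genes described here are 10 members of the tumour necrosis factor (TNF) superfamily and its receptors, chosen by symbol from the 54532 genes of the count table. They are the ligands Tnfsf13b (BAFF, the B cell survival factor), Tnfsf13 (APRIL), Tnfsf12 (TWEAK) and Tnfsf8 (CD30 ligand), and the receptors Tnfrsf1a (TNF receptor 1), Tnfrsf1b (TNF receptor 2), Tnfrsf11a (RANK), Tnfrsf13b (TACI), Tnfrsf13c (BAFF receptor) and Tnfrsf17 (BCMA). All 10 were found in the table. They came from rd1 (FVB) mice at postnatal day 30, a strain in which a Pde6b mutation causes early loss of rod photoreceptors. The vectors were injected under the retina: AAV8-GFP alone in the GFP groups, and both AAV8-GFP and AAV8-TGFB1 in the TGFB1 groups, so every eye carried the GFP vector. Neither the promoters of the vectors nor the number of animals behind a library is stated in the labels. Antibody-based sorting of dissociated retinas gave microglia and the remaining cells, called non-microglia. RNA was sequenced from 7 microglia libraries per treatment (replicates 2 to 8) and 2 non-microglia libraries per treatment (replicates 1 and 2). Nothing in the labels says that libraries came from separate animals, so p-values measure only the spread between these libraries.

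TNF superfamily ligands are mostly trimeric membrane proteins that proteases can release, and their receptors signal through TRAF adaptors or, for those with a death domain, through complexes that lead to NF-kappaB activation or cell death. BAFF and APRIL share the receptors TACI and BCMA, whereas the BAFF receptor binds BAFF alone, and this ligand group is best known for supporting B cells and plasma cells. Microglia are the resident macrophages of the retina, and myeloid cells are a known source of BAFF, APRIL and TNF. Levels below are CPM, counts per 1000000 counts of a TMM-scaled library, and a comparison between genes uses CPM per kilobase of the longest annotated transcript.

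The microglia libraries held 1766307 to 3064027 counts with GFP and 1582451 to 3044182 with TGFB1, and the non-microglia libraries held 2318212 to 2604930. In the 18 libraries, 3 counts corresponded to 0.873 to 2.10 CPM, which sets the lowest level that could be told from none. The summed level of 10 microglia markers was 37020 to 43731 CPM in the GFP microglia libraries, 39130 to 46109 CPM in the TGFB1 microglia libraries and 58.6 to 69.7 CPM in the 4 non-microglia libraries, so the sorted fractions carried the markers their labels name. Microglia replicates 2, 7 and 8 of both treatments had Xist counts and the other 12 libraries had Y chromosome counts. The TGFB1 effect in microglia was therefore also computed within each of those sets. All 4 non-microglia libraries had Y chromosome counts, so this difference lies partly along that between fractions. Comparisons between fractions were not computed within a set, and its part in them was not tested. In 3 microglia libraries, GFP replicates 2 and 5 and TGFB1 replicate 6, the summed level of Mueller glia markers other than Apoe was 634 to 785 CPM, against 269 to 486 CPM in the other 11. In bulk libraries such as these, fewer cells of a type and less RNA per cell cannot be told apart.

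The sequences just before the annotated starts of Tnfsf13b, Tnfrsf13b and Tnfrsf1b are shown because these are the BAFF ligand, whose microglia groups did not overlap between treatments, its well-expressed receptor, and a TNF receptor that was high in microglia and low but present in the other cells. Each is the 250 bases upstream of the start on the coding strand, from RefSeq on GRCm38.p6: chr8:10006217-10006466 (plus strand) for Tnfsf13b, chr11:61126505-61126754 (plus strand) for Tnfrsf13b and chr4:145246871-145247120 (minus strand) for Tnfrsf1b. Capitals mark a PU.1-type motif GAGGAA or an ETS motif GGAAGT, found on either strand.
Tnfsf13b: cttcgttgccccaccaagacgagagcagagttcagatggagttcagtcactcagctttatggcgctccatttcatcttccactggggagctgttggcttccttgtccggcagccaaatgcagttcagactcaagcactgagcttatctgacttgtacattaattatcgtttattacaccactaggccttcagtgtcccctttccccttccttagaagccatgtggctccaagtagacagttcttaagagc
Tnfrsf13b: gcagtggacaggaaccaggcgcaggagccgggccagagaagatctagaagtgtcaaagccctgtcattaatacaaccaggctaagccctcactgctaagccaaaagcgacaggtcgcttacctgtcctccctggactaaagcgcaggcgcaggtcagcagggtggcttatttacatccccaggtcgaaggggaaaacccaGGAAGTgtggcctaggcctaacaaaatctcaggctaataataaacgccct
Tnfrsf1b: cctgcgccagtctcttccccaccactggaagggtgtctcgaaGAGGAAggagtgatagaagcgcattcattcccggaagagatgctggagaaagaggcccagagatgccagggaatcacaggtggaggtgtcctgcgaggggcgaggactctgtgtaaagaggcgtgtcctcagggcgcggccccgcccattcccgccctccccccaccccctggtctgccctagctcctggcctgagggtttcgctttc
The Tnfrsf1b window held 1 GAGGAA, beginning 208 bases before the start, and the Tnfrsf13b window held 1 GGAAGT, beginning 50 bases before it. No match to either of these, the NF-kappaB consensus, the AP-1 motif TGANTCA or the SMAD motif CAGACA was present in the Tnfsf13b window shown. RefSeq gives Tnfsf13b a second start, at position 10006633, whose upstream window is not printed because it runs over transcribed bases of the first: it held 1 TGANTCA, beginning 127 bases before that start, and 1 CAGACA on the opposite strand, beginning 136 bases before it. Of 32851 promoter windows of the same length, 23.3% held GAGGAA, 19.7% GGAAGT, 1.41% the NF-kappaB consensus, 6.75% TGANTCA and 17.1% CAGACA, so the first 2 matches are of common kinds. The motifs were chosen with these sequences in view, and a match is a description of the letters only. RefSeq promoter entries were matched for 9 of the 10 genes.

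Tnfsf13b was a microglial gene in these retinas. The gene (ENSMUSG00000031497) lies at chr8:10006467-10039072 on the plus strand of GRCm38, with no exon base shared with another gene. In GFP microglia its level ran from 98.9 to 128 CPM with a median of 118 CPM (mean 115 ± 10.5, SD, n = 7). In TGFB1 microglia it ran from 140.4 to 168 CPM with a median of 155 CPM (mean 154 ± 9.32, SD, n = 7). The groups did not overlap: replicate 7 was the lowest library with TGFB1, and replicate 6 the highest with GFP. Nothing is read from this separation, since the share of all genes whose groups separate was not computed. The log2 fold change was 0.41 with a standard error of 0.07, a 1.33-fold higher level. No p is given for it, since the gene set was put together with this comparison known. The difference was 0.42 in the libraries with Xist counts, 0.40 in those with Y chromosome counts, 0.41 in replicates 2 to 4 and 0.40 in replicates 5 to 8. It was 0.35 without the 3 libraries richest in Mueller glia transcripts. These sets are parts of the same libraries, so the values are a description. No gene of the set was called in the Xist set, the Y set or either set of replicates.

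The non-microglial libraries held almost no Tnfsf13b. The counts were 1 and 0 with GFP, and 1 and 2 with TGFB1. The ratio of the pooled levels, microglia to non-microglia, was 746 with GFP (95% counting interval 134 to 29467) and 318 with TGFB1 (109 to 1541). No p is given for this gene between fractions, nor for Tnfsf8, Tnfrsf11a, Tnfrsf13b and Tnf, because they passed the filter on low counts only through their microglia counts. The level in non-microglia was 0.126% of that in microglia with GFP and 0.315% with TGFB1. The same percentage for the 10 microglia markers was 0.165% and 0.141%.

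**Figure D1:**
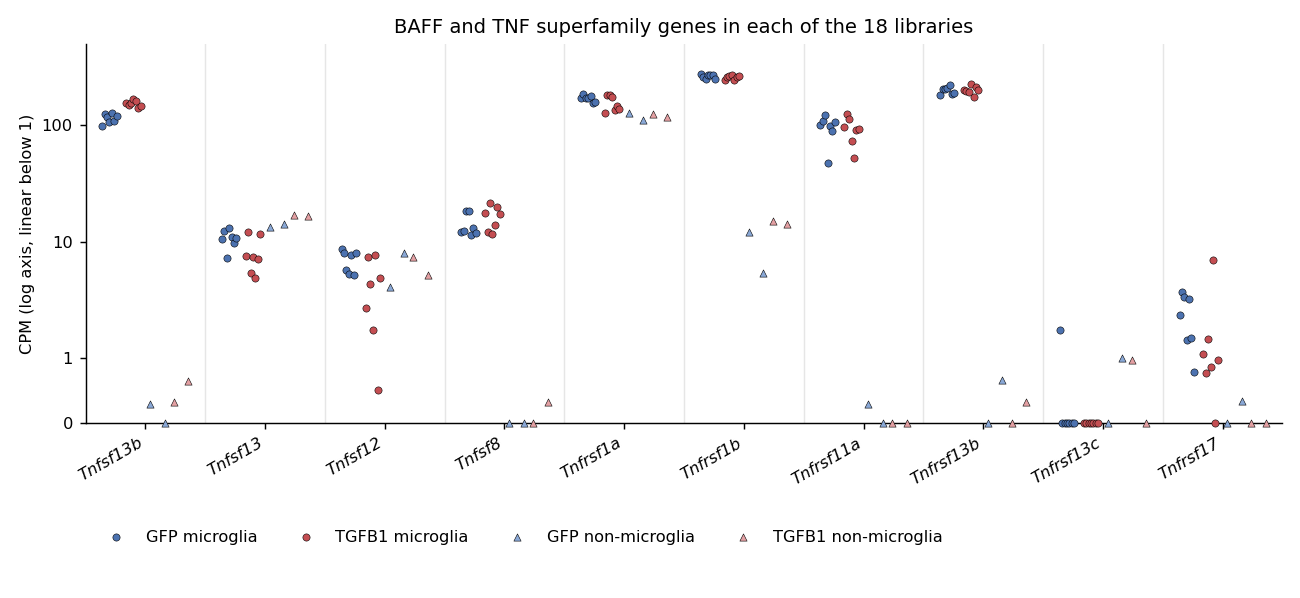
Level of each of the 10 genes in every library, in CPM (vertical axis, logarithmic above 1 and linear below). Points are single libraries, circles for microglia and triangles for non-microglia. Tnfsf13b, Tnfsf8, Tnfrsf11a and Tnfrsf13b were at 11.4 CPM or more in every microglia library and at 0 to 2 counts in every non-microglia library. Tnfsf13, Tnfsf12 and Tnfrsf1a were present in every library of both fractions.

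Tnfsf13 and Tnfsf12, neighbouring genes on chromosome 11, were expressed at low levels in both fractions. Tnfsf13 (chr11:69682846-69685784, minus strand) ranged from 7.19 to 13.0 CPM with a median of 10.7 CPM in GFP microglia, and from 4.90 to 12.1 CPM with a median of 7.35 CPM in TGFB1 microglia. Its level in non-microglia was 13.4 and 14.3 CPM with GFP and 16.7 and 17.1 CPM with TGFB1. In the TGFB1 retinas it was therefore lower in microglia, with a log2 fold change of -1.06 (SE 0.28, adjusted p = 0.00186 by edgeR), and the groups did not overlap. In the GFP retinas the log2 fold change was -0.38 (SE 0.28, adjusted p = 0.247 by edgeR), which did not pass, although the groups did not overlap there either. Whether these 2 fold changes differ was tested as the difference of the TGFB1 effects, which was -0.68 (95% interval -1.52 to 0.15) and did not pass.

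Tnfsf12 (chr11:69686250-69695849, minus strand) ranged from 5.21 to 8.73 CPM with a median of 7.76 CPM in GFP microglia. In TGFB1 microglia it ranged from 0.505 to 7.70 CPM with a median of 4.35 CPM, and 1 count was the lowest in a library. The non-microglia levels were 4.07 and 8.0 CPM with GFP and 5.15 and 7.43 CPM with TGFB1. All 4 groups overlapped, and neither fraction comparison passed (log2 fold change 0.21 and -0.60, SE 0.49 for both, edgeR adjusted p = 0.724 and 0.294). The GFP value was -0.17 without GFP non-microglia replicate 1 and 0.78 without replicate 2, and the TGFB1 value was -0.29 without TGFB1 non-microglia replicate 1. Reads at this locus are uncertain: 60% of the Tnfsf13 exon bases and 48.3% of those of Tnfsf12 are shared with the read-through gene Tnfsfm13 on the same strand. Within that 60%, 13.5% of the Tnfsf13 exon bases are also shared with the antisense gene Tnfsf13os, whose reads cannot be told apart without strand information. Tnfsfm13 itself was at 14.5 ± 2.56 CPM in GFP microglia, 10.2 ± 4.15 in TGFB1 microglia (SD, n = 7 each), 17.1 ± 3.19 in GFP non-microglia and 19.2 ± 1.65 in TGFB1 non-microglia (SD, n = 2 each). It was lower in microglia than in non-microglia with TGFB1, with a log2 fold change of -0.90 (edgeR adjusted p = 0.00832), as Tnfsf13 was.

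Tnfsf8 was a low transcript of the microglia fraction. Its level was 11.4 to 18.3 CPM with a median of 12.5 CPM in GFP microglia, and 11.7 to 21.4 CPM with a median of 17.5 CPM in TGFB1 microglia, ranges that overlapped. No count was seen in either GFP non-microglia library, which makes the GFP microglia level at least 13.9-fold higher when measured against 3 counts per library. With TGFB1, the counts were 0 and 1, and the pooled ratio was 102 (95% counting interval 18.1 to 4026). The receptor for this ligand, Tnfrsf8 (CD30), had at most 6 counts in any library.

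Among the receptors, Tnfrsf13b, which binds BAFF and APRIL, stood at 182 to 224 CPM with a median of 204 CPM in GFP microglia, and at 174 to 228 CPM with a median of 203 CPM in TGFB1 microglia. The 2 treatments overlapped over nearly the whole range. The non-microglia counts were 0 and 2 with GFP, and 0 and 1 with TGFB1. The pooled ratio between fractions was 644 (95% counting interval 178 to 5319) with GFP and 1261 (226 to 49804) with TGFB1. The gene (ENSMUSG00000010142) lies at chr11:61126755-61149372 on the plus strand.

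The other receptors of this ligand pair were at or near the floor. Tnfrsf13c (chr15:82221743-82224369, minus strand), which binds BAFF, had 3 counts in 1 GFP microglia library and 3 counts in 1 non-microglia library of each treatment, and 0 in the other 15 libraries. Tnfrsf17 (chr16:11313812-11320074, plus strand), the receptor best known from plasma cells, had 2 to 10 counts per library in GFP microglia and 0 to 10 in TGFB1 microglia. In the non-microglia, 1 count was seen in 1 of the 4 libraries, a GFP library, and the pooled GFP ratio was 14.9 (95% counting interval 2.51 to 603). Both genes were below the count minimum and were not tested. Without that minimum, 7 genes of the set in place of 6 were called between the fractions with GFP, and 10581 in place of 9830 over all genes.

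Markers of B and plasma cells, the cells in which these receptors are best known, were partly present in the microglia fraction. Of the 10 markers listed, summed levels were 561 to 734 CPM in GFP microglia and 532 to 628 CPM in TGFB1 microglia, against 4.83 to 10.98 CPM in the non-microglia. Ighm made up most of that sum, at 612 ± 61.3 CPM in GFP microglia and 546 ± 33.2 CPM in TGFB1 microglia, followed by Cd79b at 25.2 ± 5.03 and 21.3 ± 6.37 CPM (SD, n = 7 each). Both had 0 counts in all 4 non-microglia libraries. The defining genes Ms4a1, Cd79a and Pax5 had at most 3 counts in any microglia library, and Mzb1 had none. The list of 11 T and NK cell markers summed to 3.63 to 7.07 CPM in microglia, and the 13 monocyte, dendritic cell and neutrophil markers to 15.2 to 41.9 CPM, of which Ccr2 was at 8.23 ± 2.40 and Flt3 at 4.58 ± 0.98 CPM in GFP microglia (SD, n = 7). Zbtb46 was at 7.91 ± 2.32 CPM there and at 7.64 ± 0.52 in GFP non-microglia (SD, n = 2), Plac8 had up to 14 counts in a microglia library, and Klrb1c, at 3.73 ± 0.55 CPM in GFP microglia (SD, n = 7), made up most of the T and NK cell sum. Of the same lists, Nkg7 had no count, Trac at most 1 and S100a8 at most 2 in any microglia library. The part of such cells in the levels of the 10 genes was not tested.

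Tnfrsf1b, the TNF receptor of restricted expression that binds membrane TNF well, had the narrowest spread relative to its mean among the 10 genes in both microglia groups. It measured 251 to 274 CPM with a median of 272 CPM in GFP microglia, and 246 to 269 CPM with a median of 262 CPM in TGFB1 microglia (mean 265 ± 10.3 and 259.6 ± 9.74, SD, n = 7 each). The non-microglia were far lower: 12.2 and 5.34 CPM with GFP, and 14.2 and 15.2 CPM with TGFB1. The log2 fold change between fractions was 4.88 (SE 0.18, edgeR adjusted p = 1.28e-17) with GFP and 4.14 (SE 0.17, edgeR adjusted p = 8.72e-17) with TGFB1. The GFP value rested on libraries that differed: it was 5.65 without GFP non-microglia replicate 1 and 4.45 without replicate 2, both past the threshold. The non-microglial level was 3.31% of the microglial level with GFP and 5.65% with TGFB1, above the 0.165% and 0.141% of the microglia markers. The gene (ENSMUSG00000028599) lies at chr4:145213463-145246870 on the minus strand.

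Tnfrsf1a, the broadly expressed TNF receptor with a death domain, was high in both fractions. In GFP microglia it measured 154 to 184 CPM with a median of 171 CPM, in TGFB1 microglia 127 to 182 CPM with a median of 148 CPM. The non-microglia levels were 128 and 112 CPM with GFP and 119 and 126 CPM with TGFB1, below every microglia library of the same treatment. The log2 fold change was 0.50 (SE 0.13, edgeR adjusted p = 0.00139) with GFP and 0.35 (SE 0.13, edgeR adjusted p = 0.0188) with TGFB1. The second of these calls was lost with relative log expression size factors (0.22, adjusted p = 0.113 by edgeR), without the filter on low counts, in DESeq2, and without TGFB1 non-microglia replicate 2 (0.33, adjusted p = 0.106 by edgeR). The gene (ENSMUSG00000030341) lies at chr6:125349362-125362484 on the plus strand.

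Tnfrsf11a, the RANK receptor through which RANK ligand drives osteoclast formation, was found almost wholly in microglia and varied more between those libraries than the other 3 well-expressed receptors did. Its level in GFP microglia was 47.2 to 123 CPM with a median of 101 CPM, and in TGFB1 microglia 52.5 to 126 CPM with a median of 93.1 CPM. The lowest GFP library was replicate 5 and the lowest TGFB1 library replicate 6, which were also among the 3 libraries with the highest Mueller glia marker sums (785 and 634 CPM). The part of those transcripts in the low Tnfrsf11a levels was not tested, and the third such library, GFP replicate 2, was at 101 CPM. The counts in non-microglia were 1 and 0 with GFP and 0 and 0 with TGFB1. The GFP ratio was 624 (95% counting interval 112 to 24670), and the TGFB1 microglia level was at least 95.2-fold higher against 3 counts per library. The gene lies at chr1:105780718-105847981 on the plus strand. Its ligand, Tnfsf11 (RANK ligand), had no count in any of the 18 libraries, and the decoy receptor Tnfrsf11b (osteoprotegerin) had at most 3.

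**Figure D2:**
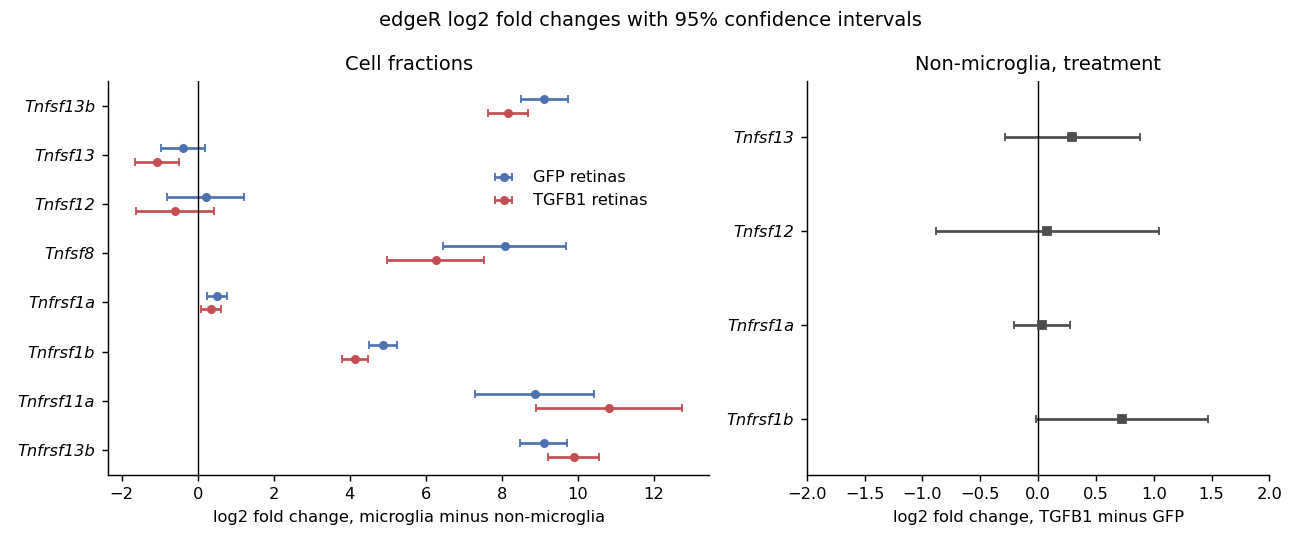
Log2 fold changes with 95% confidence intervals from edgeR. Left, microglia minus non-microglia for the 8 tested genes, with blue for GFP and red for TGFB1 retinas; right, TGFB1 minus GFP in non-microglia for the 4 tested genes. On the left, Tnfsf13, Tnfsf12 and Tnfrsf1a lie between -1.06 and 0.50 and the other 5 above 4. The intervals of Tnfsf13 with TGFB1 and of Tnfrsf1a with either treatment exclude 0. Every interval on the right includes 0. Where non-microglia held 0 to 3 counts, the fitted value is not a bound on the ratio.

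Counted together, 8 of the 10 genes passed the filter on low counts in the fit of all 18 libraries. Of these, Tnfsf13b, Tnfsf8, Tnfrsf11a and Tnfrsf13b passed only through their microglia counts, so the count that follows is a description of the set. With GFP, 6 of 8 were called higher in microglia and 0 lower, and 64.2% of all 15321 genes tested were called, 29.9% as higher and 34.2% as lower. With TGFB1, 6 were called higher and 1, Tnfsf13, lower, against 65.2% of all genes, 30.8% higher and 34.4% lower. The median log2 fold change of the 8 genes was 6.48 with GFP (4.34 with Tnfsf8 at its bound) and 5.20 with TGFB1, and the medians over all genes tested were -0.06 and -0.04.

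Scaled by transcript length, 3 receptors had the highest microglial levels. In GFP microglia, Tnfrsf1a was at 78.8 ± 4.72, Tnfrsf13b at 78.3 ± 6.08 and Tnfrsf1b at 69.3 ± 2.71 CPM per kb (SD, n = 7). Neighbours in that order overlapped, so their ranks are not separated. Tnfsf13b (24.1 ± 2.20) and Tnfrsf11a (19.2 ± 4.77) followed, overlapping each other and lying below the third receptor in every library. After another gap came Tnfsf13 (7.08 ± 1.27), Tnfsf12 (4.85 ± 1.04), Tnfsf8 (3.66 ± 0.78) and Tnfrsf17 (2.85 ± 1.37), each overlapping the next, and Tnfrsf13c was at 0.13 CPM per kb. In TGFB1 microglia Tnfsf13b was at 32.2 ± 1.95 CPM per kb and no longer overlapped Tnfrsf11a, at 18.4 ± 4.82 CPM per kb (SD, n = 7). In the non-microglia the order was Tnfrsf1a, at 55.6 ± 5.33 CPM per kb with GFP and 56.8 ± 2.48 with TGFB1, then Tnfsf13 at 9.22 ± 0.45 and 11.3 ± 0.18, then Tnfsf12 and Tnfrsf1b (SD, n = 2). With the union of all exons as the length, Tnfsf13b was at 16.8 CPM per kb in GFP microglia and 22.4 in TGFB1 microglia, and both separations around Tnfrsf11a were lost. On that scale the lowest TGFB1 microglia library for Tnfsf13b (20.4) lay below the highest for Tnfrsf11a. In GFP microglia the lowest Tnfrsf11a library (7.88) lay below the highest for Tnfsf13 (7.94).

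**Figure D3:**
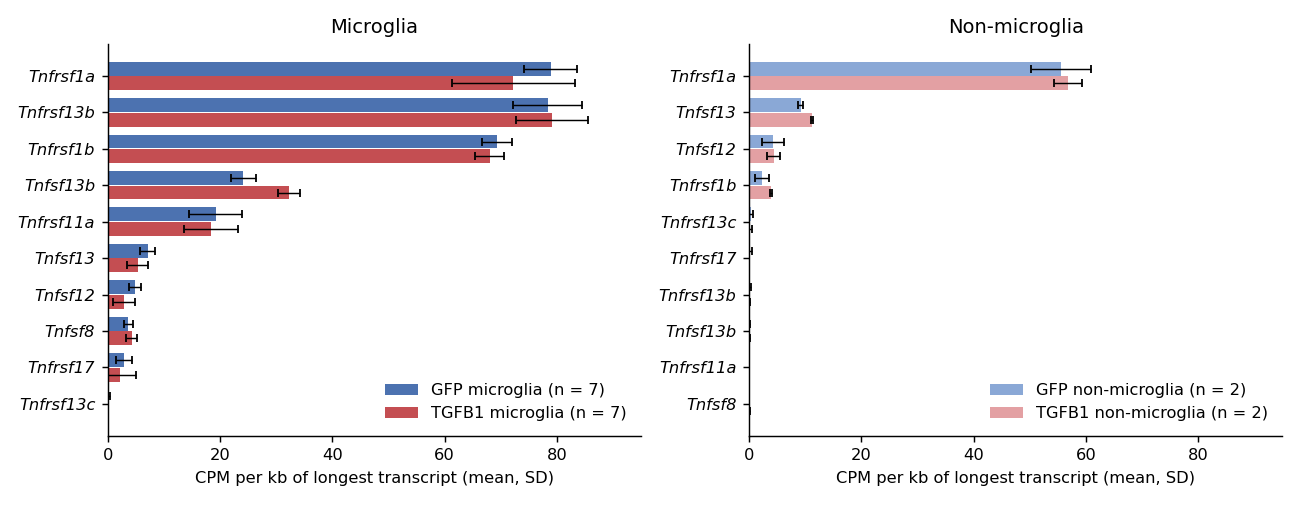
Length-scaled levels in CPM per kb of the longest transcript (horizontal axis), mean with SD over 7 microglia libraries (left) or 2 non-microglia libraries (right) per treatment, ordered by the GFP group. Tnfrsf1a, Tnfrsf13b and Tnfrsf1b lead in microglia at 68.0 to 79.1 CPM per kb, and Tnfrsf1a leads in non-microglia at 55.6 and 56.8.

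In the microglia, apart from Tnfsf13b, the treatment groups overlapped for each of the other 9 genes. The share of all genes whose treatment groups did not overlap was not computed, so nothing is read from this separation. The log2 fold changes, TGFB1 minus GFP, were 0.23 (SE 0.18) for Tnfsf8, 0.01 (SE 0.07) for Tnfrsf13b, -0.03 (SE 0.06) for Tnfrsf1b, -0.06 (SE 0.20) for Tnfrsf11a and -0.13 (SE 0.08) for Tnfrsf1a. For the low and overlapping pair Tnfsf13 and Tnfsf12 they were -0.40 (SE 0.23) and -0.75 (SE 0.34). One of the 8 genes tested, Tnfsf13b, passed edgeR's threshold, where 0.310% of the 10970 genes tested in microglia did, 0.237% as higher and 0.0729% as lower. Because this comparison was known when the set was put together, nothing is read from that count.

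**Figure D4:**
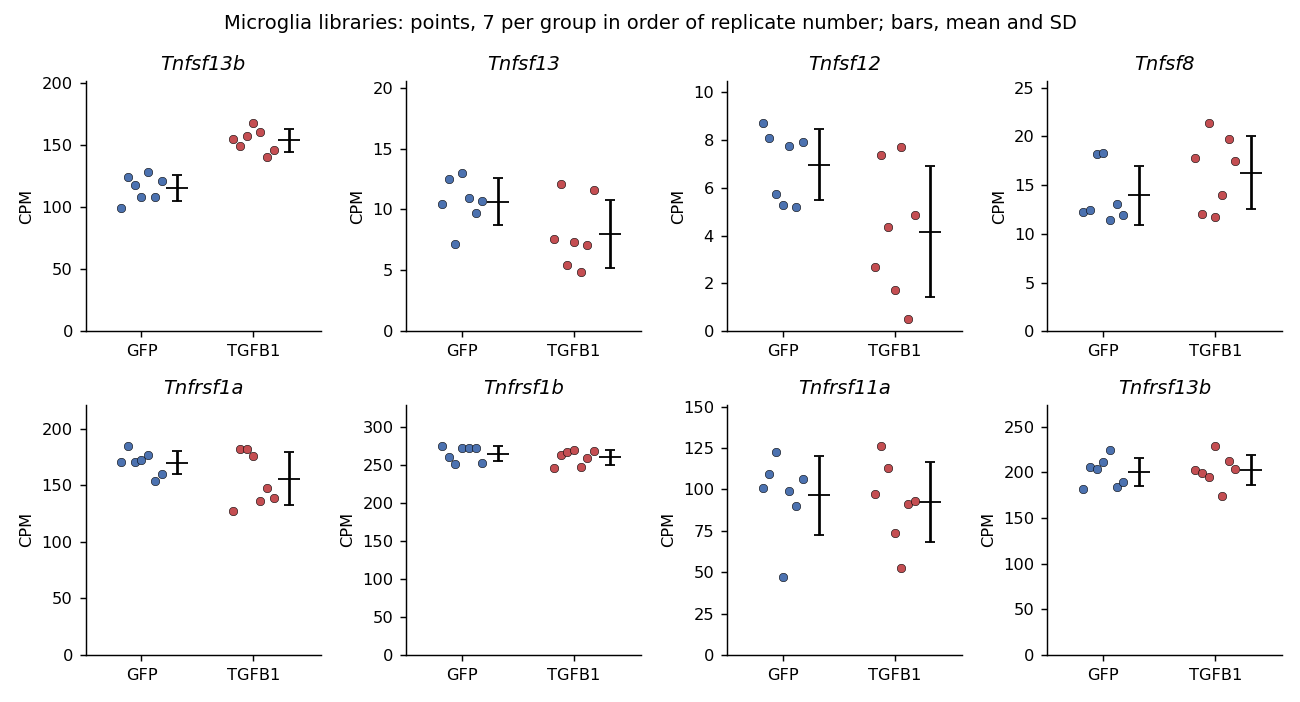
Levels in CPM (vertical axes, each from 0) of 8 genes in the 7 GFP and 7 TGFB1 microglia libraries, as points in order of replicate number with the mean and SD beside them. For Tnfsf13b the TGFB1 points (140.4 to 168) all lie above the GFP points (98.9 to 128), and in the other 7 panels the points overlap.

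In the non-microglia the effect of TGFB1 could be tested for 4 of the genes, and none passed, against 0.390% of the 13598 genes tested (0.338% higher, 0.0515% lower with TGFB1). The log2 fold changes were 0.30 for Tnfsf13 (SE 0.28, edgeR adjusted p = 0.918), 0.08 for Tnfsf12 (SE 0.47, edgeR adjusted p = 0.991) and 0.04 for Tnfrsf1a (SE 0.12, edgeR adjusted p = 0.989). For Tnfrsf1b it was 0.73 (95% interval -0.02 to 1.47, edgeR adjusted p = 0.664), and both TGFB1 libraries were above both GFP libraries. That value was 1.45 without GFP replicate 1 and 0.28 without GFP replicate 2, and neither passed. None of the 4 had an unadjusted p under 0.05 in edgeR. DESeq2, which gave an adjusted p for 1 of them, and limma-voom called 0, with 1 unadjusted p under 0.05 in voom. In this fraction 7 of 8 bipolar cell markers were called higher with TGFB1, with a median log2 fold change of 0.76 over the list, and the part of a shift in cell types in the values of the 4 genes was not tested.

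The difference of the TGFB1 effects, microglia minus non-microglia, passed for 0 of the 8 genes tested, where 0.0131% of all genes passed. The genes were chosen with the microglia part of this difference known, so the count is a description. It was -0.74 for Tnfrsf1b (95% interval -1.21 to -0.27, edgeR adjusted p = 0.734), the 1 gene with an unadjusted p under 0.05. Without GFP non-microglia replicate 1 it was -1.49, and without replicate 2 it was -0.28, neither past the threshold. For Tnfsf13b the fitted difference was -0.96 with a 95% interval of -2.61 to 0.70, set by the 4 counts in non-microglia, so its effects in the 2 fractions could not be compared at this depth. The same holds for Tnfsf8 (SE 1.42), Tnfrsf11a (SE 2.68) and Tnfrsf13b (SE 1.02), which also had few non-microglia counts.

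Of the 10 known partners and proteases of these proteins, 5 were abundant enough to test and 5 were near the floor. Tnf, the ligand of both TNF receptors, was at 25.3 ± 9.24 CPM in GFP microglia and 34.8 ± 11.7 CPM in TGFB1 microglia (SD, n = 7 each), with 0 counts in all 4 non-microglia libraries. The sheddase Adam17, which releases TNF and its receptors, was higher in microglia, at 306 ± 21.3 against 48.5 ± 6.74 CPM with GFP (edgeR log2 fold change 2.65, adjusted p = 1.91e-15). Adam10, a related sheddase, was at 381 ± 46.9 CPM in GFP microglia and 50.6 ± 2.15 CPM in GFP non-microglia (log2 fold change 2.91, edgeR adjusted p = 8.15e-15). The proprotein convertase Furin, which processes BAFF and APRIL, was also higher in microglia (log2 fold change 1.29, edgeR adjusted p = 3.95e-07). Tnfrsf12a, the receptor for TWEAK, was lower there, at 7.92 ± 2.57 CPM where GFP non-microglia had 49.8 ± 5.47 CPM (log2 fold change -2.67, edgeR adjusted p = 6.28e-11). With either treatment, 4 of these 5 were called higher in microglia and 1 lower. Of all genes tested, 64.2% were called with GFP (29.9% higher, 34.2% lower) and 65.2% with TGFB1 (30.8% higher, 34.4% lower). Tnf passed the filter on low counts only through its microglia counts, so these numbers are a description. Lta, Tnfrsf8, Tnfrsf11b and Sdc1, which encodes a heparan sulphate proteoglycan that binds APRIL, had at most 6 counts in any library, and Tnfsf11 had none.

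The rest of the family held genes higher in either fraction. Among 14 other ligands, 2 were abundant enough to test, Tnf and Ltb (lymphotoxin beta, at 4.88 ± 1.68 CPM in GFP microglia), and both had 0 counts in every non-microglia library. Of 22 other receptors, 16 were tested, of which 6 were higher and 7 lower in microglia with GFP, and 5 higher and 7 lower with TGFB1, where 29.9% and 30.8% of all genes were higher and 34.2% and 34.4% lower. Tnfrsf14 (HVEM, log2 fold change 4.87), Tnfrsf23 (a TRAIL decoy receptor, 6.30) and Relt (3.05) were the leading higher genes, and Ngfr (the p75 neurotrophin receptor, -6.15), Tnfrsf12a (-2.67) and Tnfrsf19 (-5.66) the leading lower ones. Ngfr was at 278 ± 1.15 CPM in GFP non-microglia and 4.22 ± 3.33 CPM in GFP microglia. The median log2 fold change of the 16 receptors was 0.51 with GFP, against -0.06 over all genes. Tnfrsf14, Tnfrsf22, Tnfrsf23, Tnfrsf26 and Relt, called higher with GFP, were too low to be tested within the non-microglia. Tnfrsf10b, Tnfrsf18, Tnfrsf19, Eda2r and Fas, called lower, were too low to be tested within the microglia. The numbers called and the median are therefore a description of this list.

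Signalling genes downstream of these receptors were mostly higher in microglia. Of the 12 noncanonical NF-kappaB genes, the pathway used by the BAFF receptor and RANK, 7 were called higher and 0 lower with GFP, and 7 higher and 1 lower (Birc2) with TGFB1, against 29.9% and 30.8% of all genes called higher. The leading genes were Birc3 (log2 fold change 4.24), an inhibitor of apoptosis ligase, Traf5 (2.33, edgeR adjusted p = 4.23e-10) and Nfkb2, the precursor of the p52 subunit (1.65, edgeR adjusted p = 9.72e-07). Birc3 and Traf1 passed the filter on low counts only through their microglia counts, so no p is given for Birc3. The numbers called are a description of the lists. Of the 17 genes of the TNF receptor 1 signalling complex, 13 were higher and 1 lower with GFP, and 12 higher and 2 lower with TGFB1. Casp8, which starts the death pathway, was at 133 ± 12.5 CPM in GFP microglia and 4.82 ± 3.05 CPM in GFP non-microglia (log2 fold change 4.74, edgeR adjusted p = 1.40e-15), and its inhibitor Cflar was higher too (log2 fold change 1.65, edgeR adjusted p = 3.30e-10). Tab1, a TAK1 adaptor, was lower in microglia (-0.92, edgeR adjusted p = 0.000362). The median log2 fold change was 0.70 over the first list and 0.76 over the second with GFP. Birc2, Birc3 and Traf2 stand in both lists. With relative log expression size factors, 6 of 12 and 11 of 17 were called higher with GFP.

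**Figure D5:**
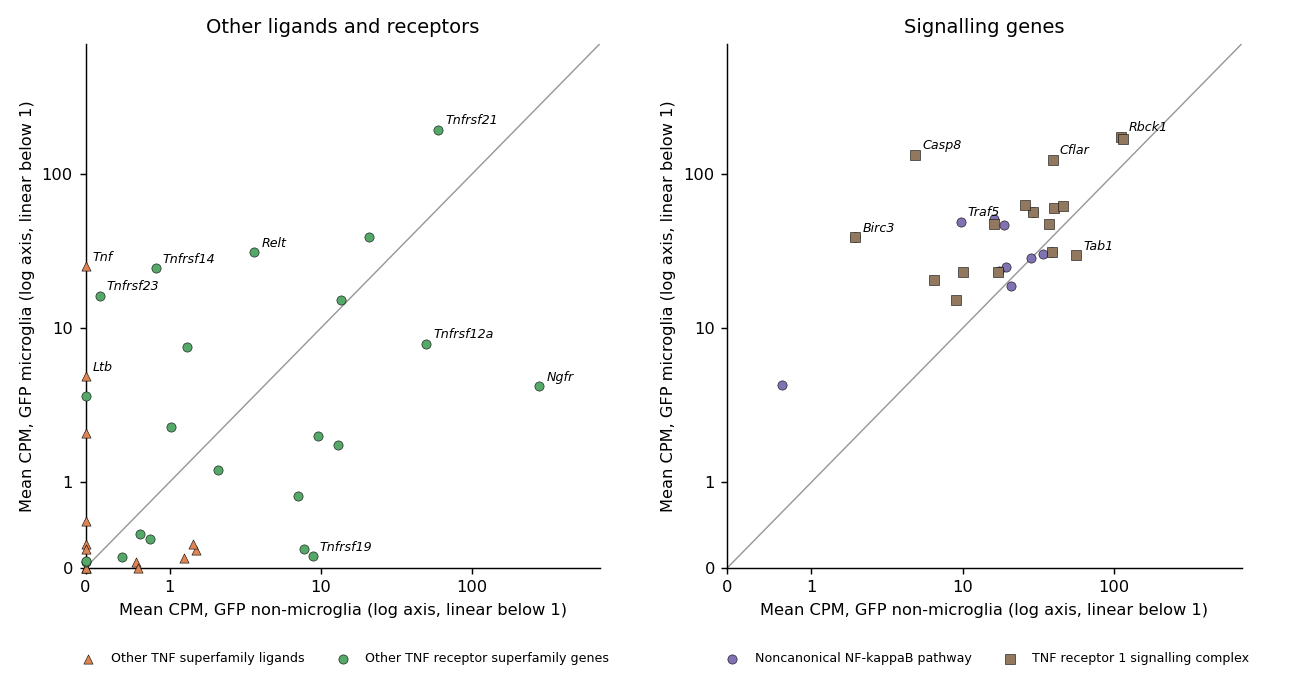
Mean level in GFP microglia (vertical) against GFP non-microglia (horizontal), in CPM on axes that are logarithmic above 1 and linear below, for the other ligands and receptors (left) and the signalling genes (right). The grey line marks equal levels; Tnf and Ltb lie on the left edge at 0 in non-microglia, Ngfr lies far below the line, and Casp8 and Birc3 lie far above it.

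None of these other genes was called with TGFB1 in either fraction, where 0.310% of all genes tested in microglia and 0.390% in non-microglia were. In the microglia, edgeR tested 5 partners, 2 ligands, 9 receptors, 11 noncanonical NF-kappaB genes and 17 genes of the TNF receptor 1 complex, of which 1, 0, 0, 1 and 3 had an unadjusted p under 0.05. In the non-microglia it tested 4, 0, 10, 10 and 16, of which 0, 0, 0, 1 and 1 had one. DESeq2 and limma-voom called 0 genes of these lists in either fraction.

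Across the 14 microglia libraries, with the mean of each treatment subtracted, the genes most like Tnfsf13b among 6254 compared were Nfe2l2 (Pearson r = 0.88), Tmem176b (0.86), Ptpra (0.86), Snrpb (0.85) and Arrb1 (0.84). These libraries share preparation and differ in depth, and the correlations are given as a description. Between pairs of 6 of the genes described here, r ran from -0.32 to 0.47, highest for Tnfrsf1a with Tnfrsf1b. Tnfsf13b and Tnfrsf13b, the BAFF ligand and its receptor, had an r of 0.37.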

How the data were processed

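The deposited table holds raw counts per gene, whole numbers that are not normalised, for 18 libraries made with a modified Smart-Seq2 protocol from polyA RNA, per the labels. Reads were processed with STAR, featureCounts and DESeq2 on GRCm38.p6, per the submitters' processing notes, whose versions and settings were not given in the sources used here. These counts carry no molecular identifiers, so intervals and floors cover counting error only. Gene positions, symbols and transcript lengths came from GENCODE M21 on GRCm38, which matched 54495 of 54532 gene identifiers.

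The counts were tested with edgeR 4.0.16 in R 4.3.3: TMM factors, filterByExpr, robust quasi-likelihood F tests, Benjamini-Hochberg adjustment over all genes tested, and a call at adjusted p under 0.05. Comparisons between fractions and the difference of effects used 1 fit of all 18 libraries; each treatment comparison used the libraries of its fraction. The code was tested on simulated data. DESeq2 1.42.0, limma-voom 3.58.1, other size factors, no count filter, no robust dispersion, a replicate block and omission of each library were alternatives, and the fit without the 3 microglia libraries richest in Mueller glia transcripts was added after seeing the data. The 95% counting intervals of ratios of pooled counts are exact binomial (Clopper-Pearson). A level of 0 was bounded at 3 counts per library.

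The 10 genes, the gene and marker lists, and the motifs were chosen with earlier results of these data known. From each list, up to 3 called genes per direction with the smallest p between GFP fractions are named, and all 10 partners. For likeness to Tnfsf13b, the 5 protein-coding genes with the highest correlation of log2(CPM + 1) were taken among those with a mean of at least 20 CPM. The values of 1 gene of the marker lists are not reported here.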

Additional observations from a re-analysis of the deposited data

Results flagged for a closer look

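In 19 groups of 7 microglia libraries that could be checked (a gene in a treatment group), the gap between an extreme library and its neighbour exceeded the limit for a 95% outlier test in 3. The limit is set to flag about 1 group in 20 by chance, a rate for continuous values that does not hold for genes near the floor. Tnfrsf13c and Tnfrsf17 are such genes, so nothing is read from the number flagged. Tnfrsf11a in GFP microglia replicate 5 was at 47.2 CPM, and the next lowest library was at 90.1 CPM. Tnfrsf13c was at 1.75 CPM in GFP microglia replicate 2, which is 3 counts, and at 0 in the other 6 libraries of that group. Tnfrsf17 was at 7.0 CPM in TGFB1 microglia replicate 6, which is 10 counts, and the next highest library was at 1.45 CPM.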

How the results depend on the processing

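The count of members called between fractions, in either direction, was 6 to 7 with GFP and 6 to 8 with TGFB1 when each library was left out. With all libraries, 64.2% of all genes tested were called with GFP and 65.2% with TGFB1. Tnfsf13b, Tnfsf8, Tnfrsf11a and Tnfrsf13b passed the filter only through their microglia counts, so these counts are a description. With each library left out, the count was 0 in every fit for the treatment in non-microglia and for the difference of effects. In microglia, a comparison known when the genes were chosen, the count was 1 in each of these fits. It was 0 in the libraries with Xist counts only, 0 in those with Y chromosome counts only, 0 in replicates 2 to 4 alone and 0 in replicates 5 to 8 alone, fits with fewer libraries. The Tnfsf13b log2 fold change was 0.35 to 0.44 over 26 alternatives and 0.38 to 0.44 without each library in turn. Whether the replicate numbers pair the libraries is not given by the labels: correlations of same-numbered microglia libraries ran from -0.12 to 0.22, not all above 0.1, same-numbered libraries matched in Xist counts, 1 number of the 7 correlated best with itself in both directions, and -0.07 was found in non-microglia. The fits therefore carry no block. With the replicate block, 1 member was called in microglia and 0 in non-microglia, Tnfsf13b stood at 0.41, and all genes called were 60 in place of 34 in microglia and 109 in place of 53 in non-microglia. All genes called in microglia were 64 without the count filter, 15 in the fit of 18 libraries, 19 and 3 in the Xist and Y sets, and 4 in each set of replicates; in non-microglia they were 102 without the filter, 35 with DESeq2 and 4 in the fit of 18 libraries. Relative log expression factors moved the median of all genes between fractions by -0.12 with either treatment, no filter by 0.27 and 0.31, and DESeq2 by 0.21 and 0.26.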
